A study of Rattus norvegicus and Mus musculus with 251 samples.

Results

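The nucleus accumbens (NAc) and the prefrontal cortex (PFC) of mice labelled as saline-treated were compared gene by gene. The members are the 13 saline libraries in the mouse count table, 7 of NAc and 6 of PFC, taken by their treatment, region and library number out of 62 mouse libraries and 251 libraries in the series. All mice are of the strain C57BL6J and carry no transgene or deletion named in the labels. The labels give no age, and the tissue came from 0.5 mm punches of coronal brain sections. NAc libraries 1 to 3 and PFC libraries 1 to 3 are from females, and NAc libraries 4 to 7 and PFC libraries 5 to 7 are from males. Numbers 1, 2, 3, 5, 6 and 7 exist in both regions and form 6 pairs. NAc library 4 has no PFC partner, so it enters the listed values but not the paired test. The labels also call the cell type neuron, although a punch holds every cell of the tissue, and markers of glia and vessels were found in all 13 libraries. The other 49 mouse libraries, from the same regions of morphine-treated mice, served as a second set of libraries for the same regional comparison. Those of NAc also entered a ranking of the saline NAc libraries. The labels sort these 49 libraries into chronic morphine, morphine and 24 h, and morphine and 2 W. Nothing in the labels says whether libraries of equal number came from 1 mouse or whether different numbers are different mice. The p-values therefore measure the spread between these libraries, which may be partly technical.

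The NAc is the ventral part of the striatum. Most of its neurons are GABA-releasing spiny projection neurons. A first class carries the dopamine receptor D1 with dynorphin and substance P, the other carries the dopamine receptor D2 with enkephalin and an adenosine receptor. Large cholinergic interneurons and several kinds of GABA interneurons make up the rest of its neurons. The PFC is a layered cortex built mainly of glutamate-releasing pyramidal neurons, which project to the NAc among other targets, together with GABA interneurons. Both regions receive dopamine from the midbrain and express opioid receptors, and both are studied for their part in reward and in opioid use.

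Each library held between 24922258 and 43963295 reads counted to genes, with medians of 28318337 in NAc and 28670873 in PFC. Levels are given as log2 CPM, the log2 of counts scaled to library size (CPM) with a prior count of 2, on which a library with no count for a gene stands at -3.92. Correlations of log2 CPM between libraries ran from 0.941 to 0.986 within NAc, from 0.965 to 0.981 within PFC, and from 0.9 to 0.934 between the regions, and no libraries were identical. A principal component holding 57.8% of the variance put all NAc libraries on one side and all PFC libraries on the other. Ribosomal protein genes took 0.872% to 1.066% of counts in NAc and 0.524% to 0.921% in PFC. Counts for Xist were high in the libraries labelled female, at 7.02 to 8.21 log2 CPM, and Ddx3y was high in those labelled male, at 5.62 to 6.43 log2 CPM. Of the 16182 genes tested, 7500 (46.3%) differed at a Benjamini-Hochberg adjusted p under 0.05 in edgeR's quasi-likelihood test with library number as a block. These are the genes said to be called or to differ below. So many genes passed that a second test asked whether the difference was larger than 2-fold, which 1062 genes (6.56%) passed. In 4000 genes (24.7%) every library of one region lay above every library of the other.

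NAc libraries 2 and 6 stood apart from the other 5 in the genes of spiny projection neurons. The summed level of the 25 genes listed as shared by all spiny projection neurons was 9789 CPM in NAc library 1, 3141 in library 2, 13380 in library 3, 8500 in library 4, 8513 in library 5, 1803 in library 6 and 6971 in library 7. In PFC the same sum was between 1805 and 1924 CPM, so NAc library 6 lay just below the PFC range. Markers of the hypothalamus, septum and thalamus went the other way, with sums of 782.2 CPM in NAc library 6 and 301.5 in library 2 against 71.4 to 230.6 in the other NAc libraries and 109.6 to 144.4 in PFC. Of that list, Pmch and Hcrt had 6776 and 2894 counts in NAc library 6 but 14 and 1 in library 2. No other NAc library had more than 36 counts of Pmch or 62 of Hcrt. The list was not raised in these 2 libraries alone. Of its 9 tested genes 6 were higher in NAc and 1 in PFC (77.8% called, beside 46.3% of all genes tested). Avp, Oxt, Nkx2-1 and Zic1 were among the 6. In 6 of the 9 genes every NAc library lay above every PFC library. The median difference was 1.70. Without pairs 2 and 6 the counts were again 6 and 1, with a median of 1.35. Among the 32 mouse NAc libraries of all treatments, library 6 had the lowest level of Drd1 and library 2 ranked 4th from the bottom. Other genes set library 6 apart from PFC. Its level of Isl1, a transcription factor with no count in any PFC library, was 4.86 log2 CPM and the highest of NAc. Isl1 is listed with projection neurons carrying D1 receptors, but the sum of that list in library 6, 606 CPM, was the lowest of NAc. That sum lay inside the PFC range of 514.4 to 608 CPM. In library 6 the Gad2 level was 10.05 log2 CPM, against 6.91 to 7.44 in PFC. The Slc17a7 level there was 3.84, against 10.89 to 11.49 in PFC. Which tissue the punch of library 6 held was not tested. The differences were therefore computed again without pairs 2 and 6. Of the 244 genes named in the text, 232 kept their side of the threshold, 7 gained a call and 3 lost it. Foxp1 and Grin2b changed sign and were called only without these pairs. Dbp (-0.12 to 0.12) and Mbp (0.19 to -0.02), among the 232 and called in neither fit, changed sign too. Values without these pairs are given beside the results that moved most, or with the limits at the end.

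**Figure D1:**
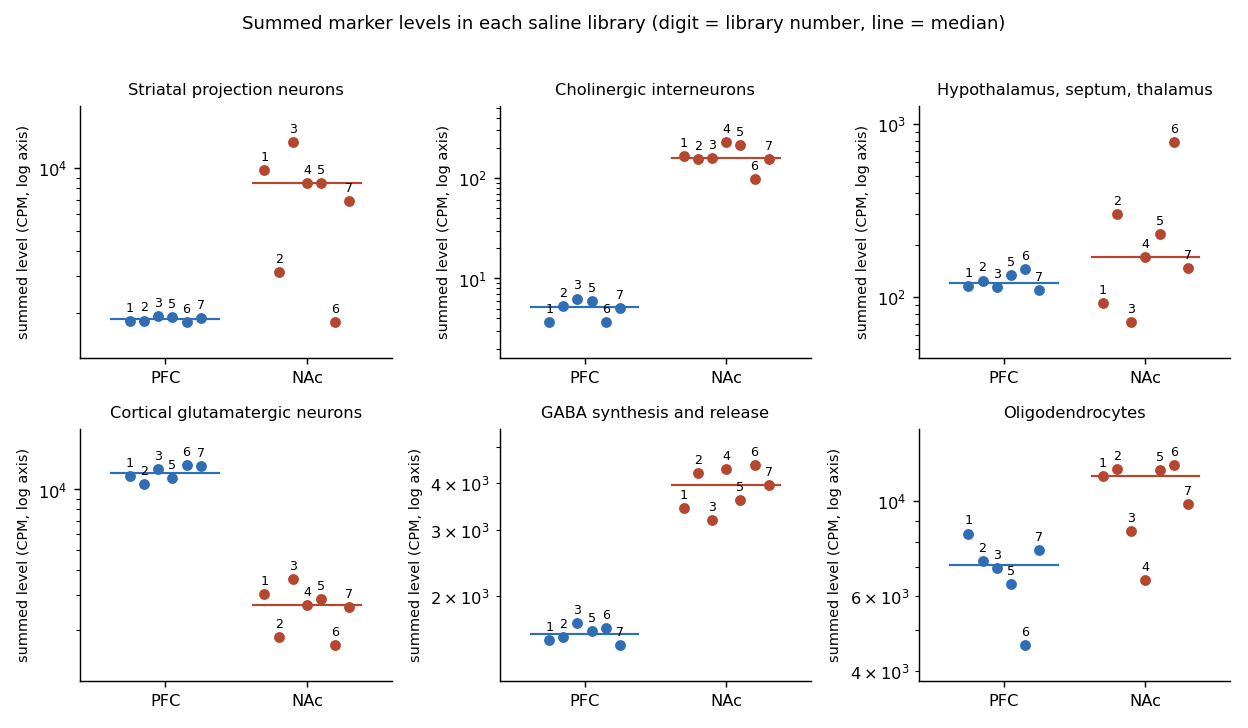
Summed levels of 6 marker lists in each saline library, in CPM on log axes. Each point is a library with its number, blue for PFC and red for NAc, and the line is the median of the region. NAc libraries 2 and 6 are the lowest of NAc for striatal projection neuron genes (3141 and 1803 CPM) and the highest for the hypothalamus, septum and thalamus list (301.5 and 782.2 CPM).

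The differences ran in both directions in nearly equal numbers: 3763 genes (23.3%) were higher in NAc and 3737 (23.1%) in PFC. Past 2-fold, 463 genes (2.86%) were higher in NAc and 599 (3.7%) in PFC. The median difference over all genes tested was 0.04 on the log2 scale and the median size, without regard to direction, was 0.36. Among protein-coding genes 6984 of 14191 (49.2%) were called, among long non-coding RNAs 320 of 914 (35%), and among pseudogenes 15.5% of 845. Every list count below is to be read beside the shares of all genes tested. These are 46.3% called, 23.3% higher in NAc, 23.1% higher in PFC and 6.56% past 2-fold.

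The genes with the largest differences were transcription factors, peptides and receptors on the NAc side. Isl1, which specifies striatal projection and cholinergic neurons, Lhx8, a cholinergic neuron factor, and Calcr, the calcitonin receptor, had no count in any of the 6 PFC libraries. They totalled 4924, 5478 and 4443 counts in NAc. Against a floor of 3 counts over the PFC group these genes were at least 1330-fold, 1480-fold and 1200-fold higher in NAc. Six3, a striatal transcription factor on chromosome 17 at 85613608 to 85629302 (GRCm38), ranged from 5.84 to 6.56 log2 CPM in NAc (median 6.04) and from -3.92 to -2.12 in PFC (median -3.64). Its difference was 10.81 ± 0.32 (SE). Its non-coding neighbour Six3os1, which overlaps it at 85600651 to 85618398, differed by 8.75 ± 0.47. The strand setting of the counting is not given in the sources used here, so reads of this pair cannot be told apart. Dlk1, an imprinted membrane protein of the Notch family, stood at 7.09 to 8.06 log2 CPM in NAc and -2.18 to 0.17 in PFC, a difference of 8.50 ± 0.37. Gpr101, an orphan receptor, differed by 7.89 ± 0.48, Gabre, a GABA-A receptor subunit, by 8.84 ± 0.54, and Nkx2-1, a ventral forebrain transcription factor, by 7.56 ± 0.45. Gal, the galanin precursor, Avp, the vasopressin precursor, and Serpina9, a serine protease inhibitor, were also among the genes with the largest differences on this side, with differences of 7.83 ± 0.69, 8.92 ± 0.35 and 8.07 ± 0.57. NAc library 6 alone held 1715 of the 3654 NAc counts of Avp, 1331 of 3462 of Gal and 873 of 2992 of Gabre. Without pairs 2 and 6 the differences were 8.50 for Avp, 6.77 for Gal and 7.80 for Gabre. Serpina9 went the other way, with its lowest NAc count, 88, in library 6. Calcr, Gabre, Serpina9 and Nkx2-1 also overlap other annotated genes.

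On the PFC side the genes with the largest differences included several that mark pyramidal neurons. Slc17a7, the vesicular glutamate transporter of cortical neurons (chromosome 7, 45163949 to 45176142), stood at 10.89 to 11.49 log2 CPM in PFC (median 11.06) and at 1.67 to 3.84 in NAc (median 3.09). It was lower in NAc by -7.91 ± 0.22 on the log2 scale, in 6 of 6 pairs. Neurod6 (-7.64 ± 0.22), Neurod2 (-7.38 ± 0.23) and Emx1 (-7.08 ± 0.43) are transcription factors of pyramidal neurons and their progenitors. Ntn5, a netrin family member, differed by -9.31 ± 0.35, Ovol2, a zinc finger factor, by -8.67 ± 0.40, and Hkdc1, a hexokinase-like protein, by -7.06 ± 0.37. Mybpc1, a myosin-binding protein, had 3 counts in all NAc libraries together and 1358 in PFC. Its count ratio was 558.1, with a 95% counting interval from 190.6 to 2710. Gm11549 (-7.80 ± 0.41), Serpinb8 (-6.91 ± 0.47), Dkkl1 (-6.47 ± 0.45) and Rtn4rl2, a Nogo receptor relative (-6.13 ± 0.34), were the remaining genes of the 12. Ntn5, Mybpc1, Ovol2 and Slc17a7 overlap other annotated genes. In each of these 23 genes no library of one region overlapped the other region, but that was part of the rule that named them.

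**Figure D2:**
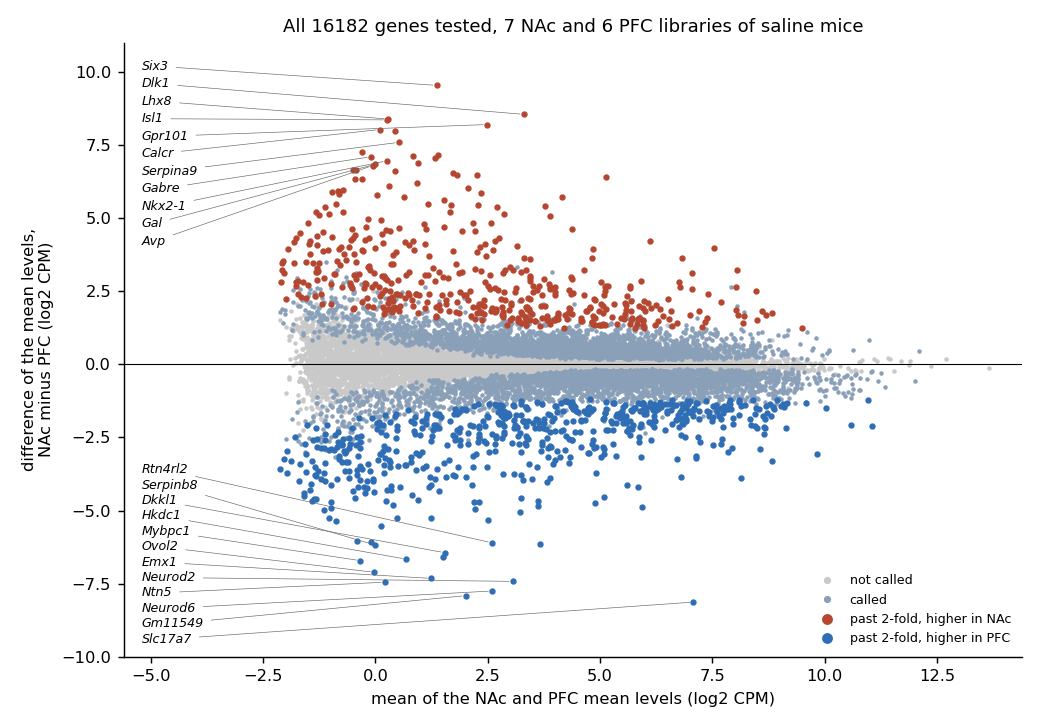
Each of the 16182 genes tested by its mean level (x axis, mean of the 2 regional means in log2 CPM) and its difference of regional means (y axis, NAc minus PFC in log2 CPM, 7 NAc and 6 PFC libraries). Grey genes were not called, pale blue genes were called, and larger red and blue points passed the 2-fold test; the 23 labelled genes are those with the largest differences named in the text. The points past 2-fold number 463 above 0 and 599 below 0.

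Most marker genes of striatal spiny projection neurons were higher in NAc. Of the 25 genes shared by both classes, 22 were higher in NAc and none was lower. The median difference of the 25 was 1.94, beside 0.04 over all genes. Of these, 13 passed 2-fold, a number that ranged from 8 without pair 1 or pair 7 to 19 without pair 6. Without pairs 2 and 6, 24 were higher in NAc, 21 passed 2-fold and the median was 2.60. Rgs9, which speeds the shut-off of striatal G proteins, stood at 4.92 to 8.18 log2 CPM in NAc (median 7.45) and 2.32 to 3.41 in PFC (median 2.90), and differed by 3.87 ± 0.44 with adjusted p = 7.45e-05, or by 4.64 without pairs 2 and 6. Every NAc library lay above every PFC library, library 6 included. Ppp1r1b, which encodes the dopamine-regulated phosphatase inhibitor DARPP-32, ranged from 5.74 to 10.76 in NAc (median 9.94) and from 6.40 to 6.76 in PFC (median 6.55). Here the regions overlapped, because NAc library 6 lay at 5.74 and was the only NAc library under the PFC range. The difference of Ppp1r1b was 2.68 ± 0.60 over 6 pairs, of which 5 were higher in NAc, and 3.58 without pairs 2 and 6. Pde10a, the striatal phosphodiesterase, differed by 2.68 ± 0.47 (3.48 without pairs 2 and 6), Gnal, the striatal stimulatory G protein, by 1.79 ± 0.23, and Adcy5, the adenylyl cyclase it acts on, by 1.75 ± 0.31. Rxrg, a retinoid receptor, was among the steadiest of the list, at 4.63 to 5.96 in NAc and -0.75 to 1.31 in PFC, with a difference of 5.31 ± 0.27. Foxp1, Arpp19 and Arpp21 were not called. Foxp1 differed by -0.05 (adjusted p = 0.92) over all pairs and by 0.64 (adjusted p = 0.00269) without pairs 2 and 6, and Arpp21 by 0.86 (adjusted p = 0.177) and 1.71 (adjusted p = 8.17e-06). Without the block Arpp21 differed by 1.25 (adjusted p = 0.0235). In bulk tissue, a larger share of cells of a type and more RNA per cell cannot be told apart, here and in every list below.

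The markers of the direct pathway, the projection neurons with D1 receptors, were divided. Of 10 genes 7 were higher in NAc and 2 in PFC, with a median of 1.88. Drd1, the D1 receptor, stood at 7.11, 5.03, 7.69, 7.06, 6.91, 3.22 and 6.71 log2 CPM in NAc libraries 1 to 7 and at 2.78 to 3.26 in PFC. NAc library 6 lay within the PFC range, library 2 above it, and the other 5 higher still. The difference of Drd1 was 3.21 ± 0.53 (adjusted p = 0.000818) and 4.08 without pairs 2 and 6. Tac1, the precursor of substance P, was less affected by those libraries, at 5.56 to 7.44 in NAc and 2.48 to 3.62 in PFC, a difference of 3.57 ± 0.27. Ebf1, a factor of direct pathway neurons, differed by 1.73 ± 0.17, with a narrow NAc range of 3.40 to 4.11. The listed gene Eya1 (-1.52 ± 0.17) was higher in PFC. Chrm4, the muscarinic receptor M4, was not called, at -0.76 ± 0.36 (adjusted p = 0.107). All 7 tested markers of the indirect pathway were higher in NAc, 6 of them past 2-fold, with a median of 4.28 (4.60 without pairs 2 and 6). Drd2, the D2 receptor, stood at 3.48 to 6.70 in NAc (median 5.84) and at -1.89 to 1.29 in PFC (median -1.42), with PFC library 5 the highest of PFC. Its difference was 6.43 ± 0.45 (adjusted p = 2.77e-06). Adora2a, the adenosine receptor of these neurons, ranged from 2.74 to 7.99 in NAc and from 1.19 to 1.72 in PFC. Its lowest NAc value was again library 6, and it differed by 5.17 ± 0.71, or 6.26 without pairs 2 and 6. Sp9, a factor of indirect pathway neurons, differed by 1.98 ± 0.20, and Gpr6, a receptor of the same neurons, by 4.28 ± 0.86, or 5.64 without pairs 2 and 6.

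Cholinergic interneuron genes were nearly absent from PFC. All 8 were higher in NAc past 2-fold, in every setting that left out a pair, and their regions never overlapped. The summed level was 98.9 to 228.7 CPM in NAc and 3.67 to 6.32 in PFC. Chat, the acetylcholine-synthesizing enzyme, stood at 3.42 to 5.15 log2 CPM in NAc (median 4.44) and at -3.32 to -1.09 in PFC (median -2.67), with a difference of 7.05 ± 0.39. Slc5a7, the choline transporter, differed by 5.75 ± 0.29, Slc18a3, the vesicular acetylcholine transporter, by 4.68 ± 0.27, and Tacr1, the substance P receptor, by 4.27 ± 0.14. Slc17a8, a glutamate transporter that these neurons also use, differed by 2.61 ± 0.19 and kept a measurable PFC level of 1.12 to 1.61.

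The GABA machinery was higher in NAc, but GABA interneuron genes split. Of 6 genes of GABA synthesis and release 5 were higher in NAc. Gad2, a GABA-synthesizing enzyme, stood at 9.48 to 10.05 log2 CPM in NAc and 6.91 to 7.44 in PFC and differed by 2.49 ± 0.11. The vesicular transporter Slc32a1 differed by 1.67 ± 0.08, and Gad1, the other synthesizing enzyme, by 0.95 ± 0.08. Of 16 interneuron genes 8 were higher in NAc and 6 in PFC, with a median of 0.32. The peptides Vip (-3.64 ± 0.18) and Cck (-4.73 ± 0.26) and the membrane protein Lamp5 (-1.83 ± 0.21) were higher in PFC without overlap. Lamp5 is also in the list of cortical layer markers given below. In NAc Nos1, the neuronal nitric oxide synthase, was higher by 1.56 ± 0.14, Chodl, which marks long-range somatostatin neurons, by 4.04 ± 0.33, Lhx6, a factor of ganglionic eminence interneurons, by 1.08 ± 0.18, and Adarb2 by 1.05 ± 0.11. Calb2, the calcium-binding protein calretinin, was higher by 2.67 ± 0.32, and its highest NAc values, 7.85 and 7.62, belonged to libraries 6 and 2. Pvalb, which marks fast-spiking interneurons, varied most within NAc, at 5.36, 5.51, 1.71, 3.54, 3.87, 6.32 and 2.51 in libraries 1 to 7, against 5.67 to 6.57 in PFC. It was lower in NAc by -1.77 ± 0.59 (adjusted p = 0.0319), with NAc library 6 inside the PFC range. That call was lost without pair 1, 3, 5 or 7 (adjusted p = 0.0528, 0.0519, 0.0733 and 0.104) and without the block (adjusted p = 0.0814), while without pairs 2 and 6 the difference was -2.69 (adjusted p = 0.00056).

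Genes of cortical glutamatergic neurons were higher in PFC. Of 18 genes 16 were higher in PFC without overlap, 15 past 2-fold, and 1 was higher in NAc, with a median of -3.54. Cckbr, a receptor for cholecystokinin, stood at 6.12 to 6.61 log2 CPM in PFC and 3.25 to 3.87 in NAc, a difference of -2.83 ± 0.13. Tbr1, a factor of deep-layer neurons, differed by -4.41 ± 0.51, Slc30a3, the synaptic zinc transporter, by -5.53 ± 0.48, and Nrgn, a calmodulin-binding postsynaptic protein, by -2.99 ± 0.15. Camk2a, the kinase of excitatory synapses, was high in both regions, at 9.36 to 10.49 in NAc and 11.73 to 12.32 in PFC, and differed by -2.14 ± 0.15. Lmo3 was the gene higher in NAc, by 0.44 ± 0.10, and Camk4 was not called at 0.02 ± 0.31 (adjusted p = 0.95), but differed by 0.61 without pairs 2 and 6. The layer markers were mixed, with 7 of 20 higher in NAc and 12 in PFC. Fezf2, which specifies layer 5 output neurons (-4.92 ± 0.12), Cux2 of the upper layers (-1.90 ± 0.13), Tshz2 (-1.92 ± 0.14), and Ccn2 and Cplx3 of the deepest layer (-3.80 ± 0.11 and -3.44 ± 0.44) were higher in PFC. Foxp2 (1.95 ± 0.40) and Syt6 (1.74 ± 0.24), used as markers of layer 6, Calb1 (1.15 ± 0.18), Pcp4 (0.98 ± 0.17) and Otof (2.42 ± 0.10) were higher in NAc. Several of the latter are also expressed by striatal neurons. Crym was not called, at 1.42 ± 0.60 (adjusted p = 0.0754), but was without pair 6 (1.96, adjusted p = 0.000573), without pairs 2 and 6 (2.33, adjusted p = 1.73e-06) and without the block (1.86, adjusted p = 0.00562).

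Transcription factors that pattern the forebrain separated the regions clearly. Of 40 tested, 21 were higher in NAc and 16 in PFC, and 27 passed 2-fold against 6.56% of all genes. Beside Isl1, Lhx8, Six3 and Nkx2-1, the homeobox genes Dlx5 (2.06 ± 0.14) and Dlx6 (2.70 ± 0.16) of GABA neurons were higher in NAc, and so were Pbx3 (2.85 ± 0.19), Meis1 (2.45 ± 0.28), Meis2 (1.76 ± 0.21), Zfhx3 (3.17 ± 0.27) and Zic1 (1.70 ± 0.23). Dlx1 and Dlx2 differed less, by 0.82 ± 0.20 and 0.83 ± 0.15, and their regions overlapped. On the PFC side Lhx2 (-2.70 ± 0.31), Otx1 (-3.93 ± 0.39), Emx2 (-1.80 ± 0.22), Zbtb18 (-2.68 ± 0.12) and Id2 (-1.55 ± 0.08) joined those of the pyramidal neuron list. The paralogs Nr2f1 and Nr2f2 went in opposite directions. Nr2f1 was higher in PFC, by -1.67 ± 0.24, and Nr2f2 higher in NAc, by 2.00 ± 0.42, or 1.34 without pairs 2 and 6. Another such pair was Bcl11a, higher in PFC by -1.19 ± 0.21, and Bcl11b, higher in NAc by 1.08 ± 0.36. The Bcl11b call was lost without pair 1, 3, 5 or 7, with differences of 0.85 or more (adjusted p = 0.0929, 0.0757, 0.0844 and 0.0941). Bcl11b differed by 1.68 (adjusted p = 1.11e-06) without pairs 2 and 6. Pax6, Foxp1 and Pou3f1 were not called over all pairs. Pax6 stood at -0.27 (adjusted p = 0.58) and was called as higher in PFC without pairs 2 and 6 (-0.95, adjusted p = 0.00129).

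Neuropeptide precursors differed widely, more of them on the NAc side. Of 24 tested genes, which include the neurexophilins Nxph1 and Nxph4, 14 were higher in NAc and 6 in PFC, and 15 passed 2-fold. Without pairs 2 and 6, 12 were higher in NAc and 6 in PFC, and the median fell from 1.32 to 0.95. Penk, the enkephalin precursor, stood at 7.61 to 10.56 log2 CPM in NAc (median 9.90) and 4.78 to 5.88 in PFC (median 5.61), a difference of 3.97 ± 0.38. Pdyn, the dynorphin precursor, stood at 5.40 to 8.12 in NAc (median 7.39) and 4.68 to 5.18 in PFC (median 5.10), a difference of 2.03 ± 0.33. The regions overlapped for neither opioid peptide, although NAc library 6 was the lowest for both. Without pairs 2 and 6 the differences were 4.60 for Penk and 2.60 for Pdyn. Per length, the mean level in NAc was 2110 TPM (transcript counts scaled by exon length to a fixed total) for Penk and 218.6 for Pdyn, against 103.8 and 39.6 in PFC. Pomc, the precursor of beta-endorphin, was low in both regions, at 0.52 to 1.53 in NAc and -0.16 to 0.64 in PFC. Its difference of 0.99 ± 0.25 was called over all pairs (adjusted p = 0.00864) but not without pairs 2 and 6 (0.93, adjusted p = 0.0674). Pnoc, the nociceptin precursor, was not called (0.82 ± 0.36, adjusted p = 0.0867), but was without pair 3 (1.19, adjusted p = 0.0026) and without the block (0.97, adjusted p = 0.0405). Cartpt, which yields the appetite peptide CART, was higher in NAc by 3.18 ± 0.29, Nts, the neurotensin precursor, by 5.37 ± 0.27, Trh, the thyrotropin-releasing hormone precursor, by 4.72 ± 0.34, Tac2, the neurokinin B precursor, by 3.00 ± 0.34, and Crh, the corticotropin-releasing hormone precursor, by 1.44 ± 0.21. On the PFC side stood Cck and Vip with Cort (-2.85 ± 0.28), Grp (-2.84 ± 0.41), Adcyap1 (-2.66 ± 0.36) and Npy (-0.66 ± 0.16). Oxt and Avp, the oxytocin and vasopressin precursors, are made by hypothalamic neurons. Oxt stood at 1.65, 5.05, -1.10, 1.76, 3.10, 5.66 and 2.86 in NAc libraries 1 to 7, highest in libraries 6 and 2, and 5 of the 6 PFC libraries had no count of it.

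Dopamine receptors differed in direction as well as in size. Drd3, the D3 receptor of the ventral striatum, had no count in PFC and stood at -1.10 to 2.64 log2 CPM in NAc, which is at least 197-fold higher. Drd5 was not called over all pairs (1.06 ± 0.41, adjusted p = 0.0543) but was without pair 3 (1.47, adjusted p = 0.00238). Drd4, the receptor of this family usually found in PFC, was low everywhere, at -3.92 to -1.17 in NAc and -1.33 to -0.58 in PFC. Its difference of -1.99 ± 0.72 (adjusted p = 0.0446) was called over all pairs but not without pair 1, 2, 3, 6 or 7 (adjusted p from 0.0634 to 0.0996). Per length the NAc means were 114.1 TPM for Drd1, 84.96 for Drd2, 7.16 for Drd3, 6.24 for Drd5 and 0.145 for Drd4. In PFC they were 7.95 for Drd1, 2.81 for Drd5, 0.942 for Drd2 and 0.488 for Drd4. Drd1 was therefore the highest dopamine receptor transcript per length in both regions.

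The 4 opioid receptor genes also parted. Oprm1, the mu receptor on which morphine acts, stood at 1.39 to 2.87 log2 CPM in NAc (median 1.69) and -2.37 to -0.16 in PFC (median -0.61). All NAc libraries lay above all PFC libraries, and libraries 2 and 6, at 1.54 and 2.02, were inside the NAc range. Oprm1 differed by 2.78 ± 0.43 (adjusted p = 0.000555), and by 2.70 without pairs 2 and 6. Oprk1, the kappa receptor for dynorphin, stood at 4.50 to 5.27 in NAc and -0.54 to 1.81 in PFC and differed by 4.11 ± 0.34 (adjusted p = 7.73e-06). Oprl1, the nociceptin receptor, was higher in NAc by 0.85 ± 0.14, at 5.64 to 6.95 against 5.19 to 5.56. Oprd1, the delta receptor, was the one higher in PFC, by -0.67 ± 0.15 (adjusted p = 0.00483), with overlapping ranges of 2.87 to 4.12 in NAc and 3.84 to 4.49 in PFC. Without pairs 2 and 6 its difference was -0.45 (adjusted p = 0.0131). Per length the NAc order was Oprl1 at 83.3 TPM, Oprk1 at 11.9, Oprd1 at 11.7 and Oprm1 at 1.97. The PFC order was Oprl1 at 40.3, Oprd1 at 15.6, Oprk1 at 0.636 and Oprm1 at 0.236.

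Over the whole list of 20 dopamine, acetylcholine, opioid, adenosine and cannabinoid receptors, 8 were higher in NAc and 6 in PFC. Of the muscarinic receptors, Chrm5 was higher in NAc by 3.75 ± 0.56, and Chrm1 and Chrm3 were higher in PFC, by -1.19 ± 0.29 and -1.95 ± 0.20. The nicotinic subunit Chrna4 was higher in PFC (-1.04 ± 0.18). The adenosine receptors were opposed, with Adora2a higher in NAc and Adora1, the inhibitory A1 receptor, higher in PFC by -1.53 ± 0.09. Cnr1, the cannabinoid receptor CB1, was not called (-0.25 ± 0.10, adjusted p = 0.057) but passed without pair 6 (-0.31, adjusted p = 0.0232) and without pairs 2 and 6 (-0.34, adjusted p = 0.024). Of 19 serotonin and noradrenaline receptors 6 were higher in NAc and 5 in PFC, so that 57.9% were called beside 46.3% of all genes tested. Htr1b (2.50 ± 0.25), Htr1d (6.02 ± 0.63), Htr2c (2.02 ± 0.16) and Htr4 (2.10 ± 0.24) were higher in NAc past 2-fold, and so was the adrenergic receptor Adra2b (4.10 ± 0.79). Htr3a, the channel-forming serotonin receptor of cortical interneurons (-1.60 ± 0.24), Htr5a (-0.99 ± 0.09) and the adrenergic receptors Adra1b (-1.57 ± 0.29), Adra1d (-4.51 ± 0.47) and Adrb1 (-1.98 ± 0.13) were higher in PFC. Htr2a, the receptor through which many psychedelics act, was not called, at 0.15 ± 0.19 (adjusted p = 0.525).

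**Figure D3:**
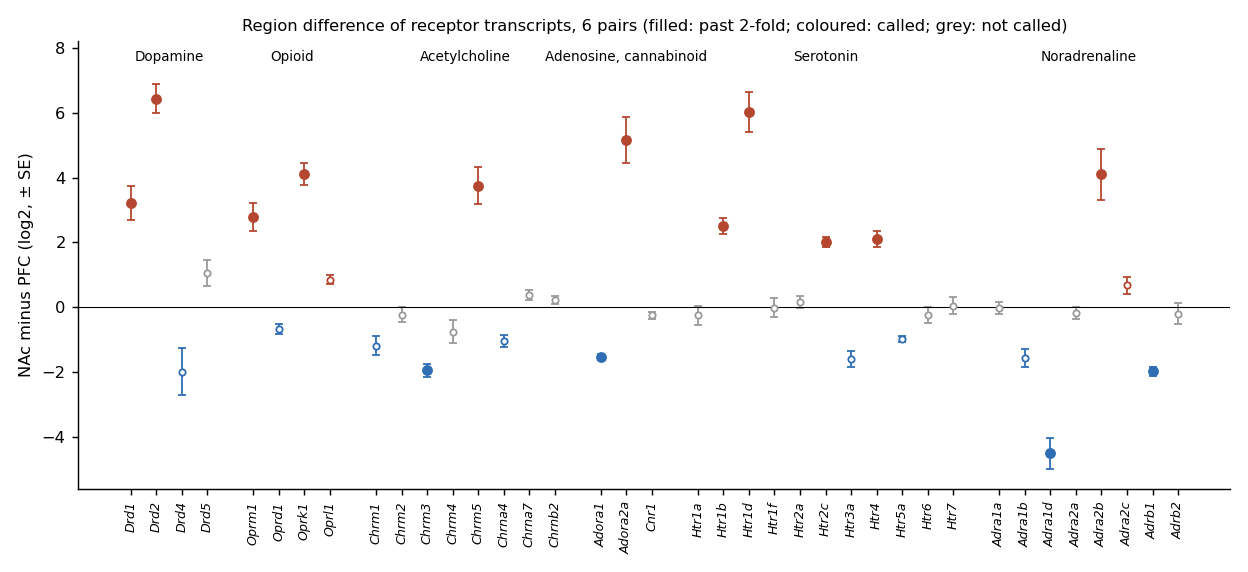
Fitted difference of each tested dopamine, opioid, acetylcholine, adenosine, cannabinoid, serotonin and noradrenaline receptor gene over 6 pairs (y axis, NAc minus PFC on the log2 scale, bars ± SE). Filled points passed 2-fold, open coloured points were called, and grey points were not called; Drd3, with no count in PFC, has no point. The differences run from 6.43 for Drd2 to -4.51 for Adra1d.

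Receptors of glutamate and GABA, the fast transmitters, were called in both directions. Of 18 ionotropic glutamate receptor genes 8 were higher in NAc and 5 in PFC, but only Grik2, a kainate receptor subunit, passed 2-fold, at 1.83 ± 0.13. The AMPA receptor subunits Gria1 (0.60 ± 0.09) and Gria3 (-0.42 ± 0.10) went in opposite directions. Of the NMDA receptor subunits Grin1 (-0.46 ± 0.10), Grin2a (-1.40 ± 0.20) and Grin2c (-0.80 ± 0.10) were higher in PFC, and Grin3a (0.80 ± 0.16) was higher in NAc. Grin2b was not called, at -0.02 (adjusted p = 0.939), but differed by 0.30 (adjusted p = 0.047) without pairs 2 and 6. Of 7 metabotropic receptors 3 were higher in NAc and 2 in PFC. Grm5 (1.02 ± 0.20), which couples to phospholipase C, was higher in NAc, and Grm2, a presynaptic autoreceptor, higher in PFC by -2.97 ± 0.17. Of 13 GABA-A receptor subunits 5 were higher in NAc and 2 in PFC, with a median of 0.01. The share called, 53.8%, was near the 46.3% of all genes tested. Gabrg1 (2.09 ± 0.17), Gabrg3 (0.99 ± 0.09), Gabrb1 (0.79 ± 0.09) and Gabra2 (0.70 ± 0.10) stood on the NAc side with Gabre.

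Second-messenger genes differed by isoform rather than as a group. Of 37 genes of cAMP and cGMP signalling 15 were higher in NAc and 10 in PFC, with a median of 0.03. The number past 2-fold was 6, and ranged from 2 without pair 7 to 10 without pair 6. The adenylyl cyclases were opposed, with Adcy5 higher in NAc and Adcy1, a calcium-stimulated form, higher in PFC by -3.29 ± 0.10 (10.32 to 10.76 log2 CPM in PFC, 6.86 to 7.38 in NAc). Adcy2 (-1.10 ± 0.11), Adcy8 (-0.95 ± 0.17) and Adcy9 (-0.92 ± 0.16) were also higher in PFC. Phosphodiesterases Pde1b (1.74 ± 0.35), Pde1c (2.50 ± 0.20), Pde7b (1.79 ± 0.29) and Pde9a (1.05 ± 0.11) were higher in NAc, and Pde4a (-1.05 ± 0.11) in PFC. The protein kinase A subunit Prkar2b was higher in NAc (0.96 ± 0.14) and Prkar1b in PFC (-0.84 ± 0.10), and the catalytic subunit Prkaca was not called, at -0.06 ± 0.09 (adjusted p = 0.615). RGS proteins, which end G protein signals, gave 7 of 17 higher in NAc and 5 in PFC. Beside Rgs9, Rgs2 (1.48 ± 0.13), Rgs8 (1.16 ± 0.12) and Rgs10 (1.61 ± 0.11) were higher in NAc, and Rgs4 (-1.36 ± 0.22), Rgs6 (-1.44 ± 0.15) and Rgs7 (-0.95 ± 0.07) in PFC.

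Retinoic acid genes were called in both directions. Of 16 tested, 4 were higher in NAc and 8 in PFC, or 4 and 5 without pairs 2 and 6. The receptors Rarb (2.61 ± 0.43, or 3.38 without pairs 2 and 6) and Rxrg, the binding protein Crabp1 (6.36 ± 0.50) and the degrading enzyme Cyp26b1 (2.03 ± 0.25) were the 4 on the NAc side. The synthesizing enzymes Aldh1a1 (-1.67 ± 0.19) and Aldh1a2 (-2.41 ± 0.49), the uptake receptor Stra6 (-1.49 ± 0.35) and the receptor Rara (-1.18 ± 0.15) were higher in PFC. Aldh1a2 is also a meningeal marker, and the meningeal list, given below, was higher in PFC too. Potassium channel genes leaned to PFC, with 16 of 32 higher there and 4 in NAc, or 17 and 8 without pairs 2 and 6. Over all pairs 62.5% of the list were called, beside 46.3% of all genes tested. Kcnj6 (-2.30 ± 0.23), Kcnj3 (-1.95 ± 0.17) and Kcnj9 (-1.75 ± 0.14), the channel subunits opened by Gi-coupled receptors such as the opioid receptors, were all higher in PFC without overlap. Kcnh7 (-2.11 ± 0.11) and Kcnv1 (-2.01 ± 0.32) were also past 2-fold. Kcna4, which gives a fast-inactivating current, was higher in NAc by 1.28 ± 0.30.

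Immediate early genes, which neurons switch on within minutes of activity, were all higher in PFC. Of 18 tested, 18 were called and 17 did not overlap, against 23.1% and 14.1% of all genes in that direction. The median difference was -2.20, and 13 passed 2-fold. That number ranged from 9 to 16 when single pairs were left out. Fos, the most used activity marker, stood at 6.19, 6.50, 6.60, 6.92, 7.43 and 6.74 log2 CPM in PFC libraries 1, 2, 3, 5, 6 and 7 and at 4.06, 4.51, 4.32, 4.45, 4.71, 4.88 and 4.29 in NAc libraries 1 to 7. Every PFC library lay above every NAc library. Fos differed by -2.27 ± 0.09 (adjusted p = 1.22e-07, lower in NAc in 6 of 6 pairs), a value that was the same without pairs 2 and 6. Arc, a synaptic protein gene, stood at 9.49 to 10.53 in PFC and 5.49 to 7.04 in NAc and differed by -3.85 ± 0.26. The zinc finger factor Egr1 differed by -2.90 ± 0.28, the neuronal factor Npas4 by -2.15 ± 0.41, and the nuclear receptors Nr4a1 and Nr4a2 by -2.47 ± 0.32 and -3.51 ± 0.19. Nr4a2 is also in the list of cortical layer markers. Ier2 differed by -3.49 ± 0.15, and the phosphatase Dusp1 by -2.24 ± 0.13. Bdnf, the neurotrophin that cortical axons deliver to the striatum, differed by -3.80 ± 0.35, with a PFC range of 5.30 to 5.59 and an NAc range of -0.24 to 2.94. Jun differed least, by -0.39 ± 0.09, and was the 1 gene whose regions overlapped.

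Clock genes differed less but mostly in the same direction, with 13 of 19 higher in PFC, none in NAc and a median of -0.60. Without pairs 2 and 6, 12 were higher in PFC and 2 in NAc. Bhlhe40 (-1.90 ± 0.09), a clock repressor that also responds to activity, and Hlf (-1.69 ± 0.18), an output factor, passed 2-fold with Rorb (-1.25 ± 0.10), which is also a cortical layer 4 marker. The repressors Per1 (-1.24 ± 0.16), Per2 (-0.81 ± 0.13) and Cry2 (-0.59 ± 0.09) and the Rev-erb gene Nr1d1 (-0.95 ± 0.11) were called, whereas Cry1, Clock, Dbp, Tef, Npas2 and Bhlhe41 were not. Arntl, the partner of Clock, differed by -0.48 ± 0.11. The time of day at which the tissue was taken is not in the labels.

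**Figure D4:**
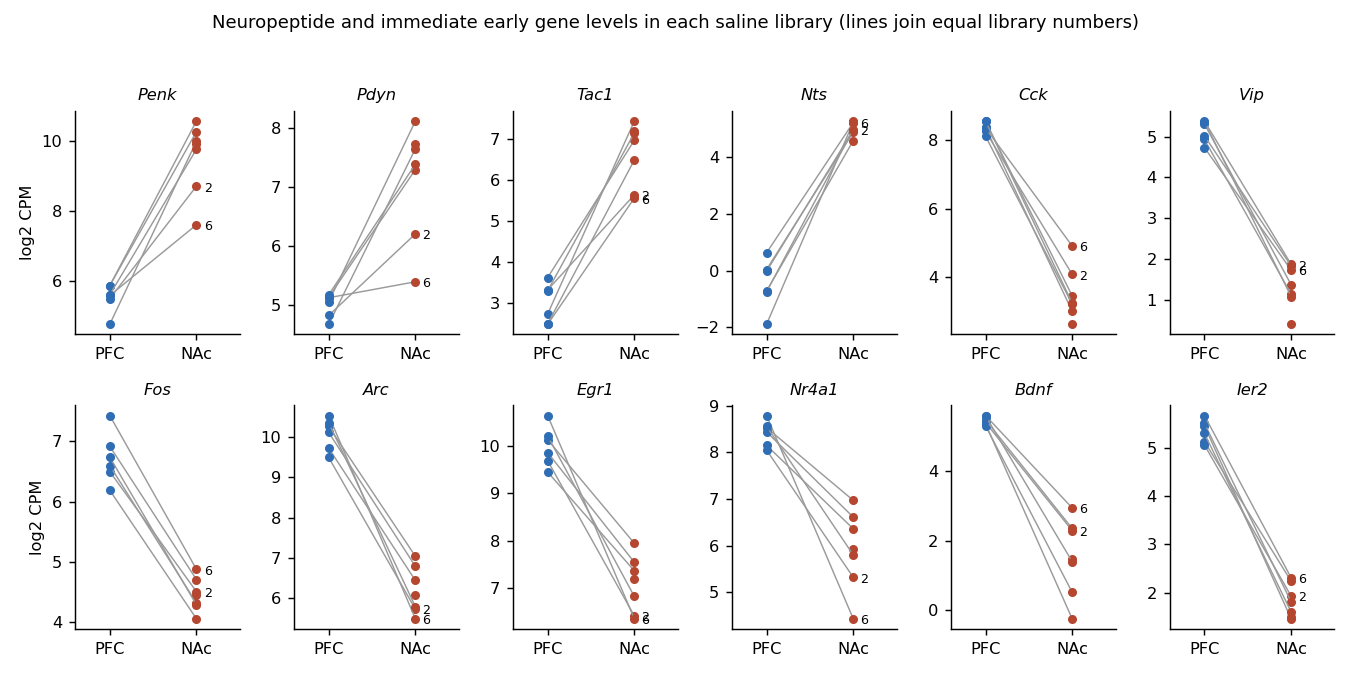
Levels (log2 CPM, y axes with separate ranges) of 6 neuropeptide and 6 immediate early genes in each saline library, PFC in blue and NAc in red. Lines join libraries of equal number, NAc libraries 2 and 6 are numbered, and NAc library 4 has no line. For Penk and Pdyn those libraries are the lowest of NAc, while the NAc and PFC points do not overlap in any of the 12 genes.

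Marker genes of cell types other than neurons also differed between the punches. Of 14 oligodendrocyte genes 12 were higher in NAc and none in PFC, with a median of 0.58. No member passed 2-fold. Ugt8a, an enzyme of myelin lipid synthesis, stood at 5.88 to 6.58 log2 CPM in NAc and 5.30 to 5.69 in PFC, a difference of 0.86 ± 0.09, whereas Mbp was not called (0.19 ± 0.16, adjusted p = 0.35). Of 8 precursor genes 5 were higher in NAc, among them Pdgfra (0.72 ± 0.09) and Cspg4 (0.66 ± 0.14). Astrocyte genes split, with 8 of 14 higher in PFC and 3 in NAc. Gfap, a filament protein, was higher in PFC by -1.38 ± 0.09, and so were the glutamate transporter Slc1a2 (-0.91 ± 0.12) and the gap junction gene Gjb6 (-0.95 ± 0.18). Agt, the angiotensinogen gene, was higher in NAc by 2.81 ± 0.45 (2.03 without pairs 2 and 6), and PFC library 5, at 5.33, lay within the NAc range of 4.68 to 7.83. Microglia genes were nearly level, with 3 of 12 higher in NAc and 1 in PFC. The share called was 33.3%, beside 46.3% of all genes tested. The 4 calls became 2 without pair 2 or pair 5, and 1 without the block. Cx3cr1, a microglial chemokine receptor, differed by 0.09 ± 0.08 (adjusted p = 0.408).

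Vascular and meningeal genes were higher in PFC. Of 14 endothelial and mural cell genes 13 were higher in PFC, with a median of -0.90. Cldn5, the tight junction protein of brain vessels, stood at 5.17 to 5.56 in PFC and 3.96 to 5.07 in NAc and differed by -0.75 ± 0.12. All 9 meningeal fibroblast genes were higher in PFC, with summed levels of 108.9 to 193.9 CPM in PFC and 29.5 to 86.4 in NAc. Col1a2, a collagen gene, differed by -1.41 ± 0.14, and Slc22a6, an anion transporter, by -3.52 ± 0.53. Blood genes, which are haemoglobin genes and Alas2, leaned to PFC. Their 4 calls of 5 genes fell to 1 without pair 6 or pair 7, and to 2 without pair 1, 2 or 3. Of 7 ependyma and choroid plexus genes 5 were higher in NAc. Ttr, the choroid plexus transport protein, depended on single libraries, at 8.64 and 8.59 in NAc libraries 5 and 7 against 2.56 to 5.62 in the other NAc libraries, and at 7.11 in PFC library 3 against 0.07 to 3.19 in the other PFC libraries. Its difference of 3.80 ± 1.10 (adjusted p = 0.0171) was not called without pair 2 (3.48, adjusted p = 0.0556) or pair 7 (3.19, adjusted p = 0.0726), nor without the block (2.46, adjusted p = 0.267). Of 13 mitochondrially encoded mRNAs 1 was called, mt-Nd6, the one read from the opposite strand, at 0.58 ± 0.07. Whether the levels of these cell types bear on the neuronal lists was not tested.

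The sexes were balanced over the pairs, with 3 female and 3 male pairs, and the regional difference was tested for dependence on sex. No gene of 16182 passed (0%), with 383 (2.37%) at an unadjusted p under 0.05 in edgeR and 423 in DESeq2. Without pairs 2 and 6, with 2 pairs of each sex, 11 genes passed. The 5 genes with the smallest p all had an adjusted p of 0.99. Tac2 was among them, with a male minus female difference of the regional difference of 1.63 ± 0.38, and so were Usp43 (-3.17 ± 0.74), 5330413P13Rik (-2.23 ± 0.44) and Gm1821 (0.75 ± 0.16). With 3 pairs of each sex the median standard error of this term was 0.26 on the log2 scale.

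The regional difference was then read in libraries not used in the saline fit, the NAc and PFC libraries of morphine-treated mice, in 24 pairs. In these, 10724 of 16321 genes (65.7%) were called, 36.5% higher in NAc and 29.2% higher in PFC. Of 7463 genes called in saline mice and tested in both sets, 6936 (92.9%) were called in morphine mice as well, which is 65.5% of the 10582 called there, all in the same direction. Past 2-fold, 968 of 1045 genes (92.6%) were shared, and 1045 had the same direction. Within the treatment groups, called genes numbered 8441 in the 8 chronic morphine pairs, 8293 in the 9 pairs of the 24 h group and 4098 in the 7 pairs of the 2 W group. They held 82.3%, 84.4% and 50.4% of the saline calls, and the shared genes made up 72.8%, 75.8% and 91.1% of the calls tested in both. Eme2, a DNA repair nuclease subunit, was the 1 gene called in opposite directions, at 0.40 ± 0.12 in saline mice (adjusted p = 0.0221) and -0.35 ± 0.12 in the chronic morphine group (adjusted p = 0.0241). Its saline call was lost without pair 6 (0.36, adjusted p = 0.0518), without pair 7 (0.38, adjusted p = 0.0647) and without pairs 2 and 6 (0.39, adjusted p = 0.088).

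The projection neuron genes were higher in NAc in morphine mice too. The shared list had a median of 2.62 with 24 of 25 genes called, beside 1.94 in saline mice and 2.60 in saline mice without pairs 2 and 6. In morphine mice Drd1 differed by 4.30 ± 0.25, Penk by 4.67 ± 0.17 and Pdyn by 2.62 ± 0.14. Foxp1 (0.47, adjusted p = 0.0149) and Arpp21 (1.63, adjusted p = 5.32e-10), not called in saline mice, were higher in NAc there. Oprm1 differed by 3.49 ± 0.29 and Oprk1 by 4.29 ± 0.21. Oprd1, higher in PFC in saline mice, differed by -0.18 ± 0.17 (adjusted p = 0.333) in morphine mice. The immediate early genes were again higher in PFC, in 17 of 18 cases, with a median of -1.47 over all morphine pairs, -1.40 in the chronic group, -1.47 in the 24 h group and -1.94 in the 2 W group. Fos differed by -1.77 ± 0.14 over all of these pairs, with -1.28 ± 0.22 in the chronic group, -1.90 ± 0.18 in the 24 h group and -2.17 ± 0.13 in the 2 W group. Arc differed by -2.06 ± 0.23, -2.71 ± 0.15 and -3.49 ± 0.15 in the same order. These values stand beside -2.27 for Fos and -3.85 for Arc in saline mice. Whether the regional difference itself depends on treatment was not tested here.

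**Figure D5:**
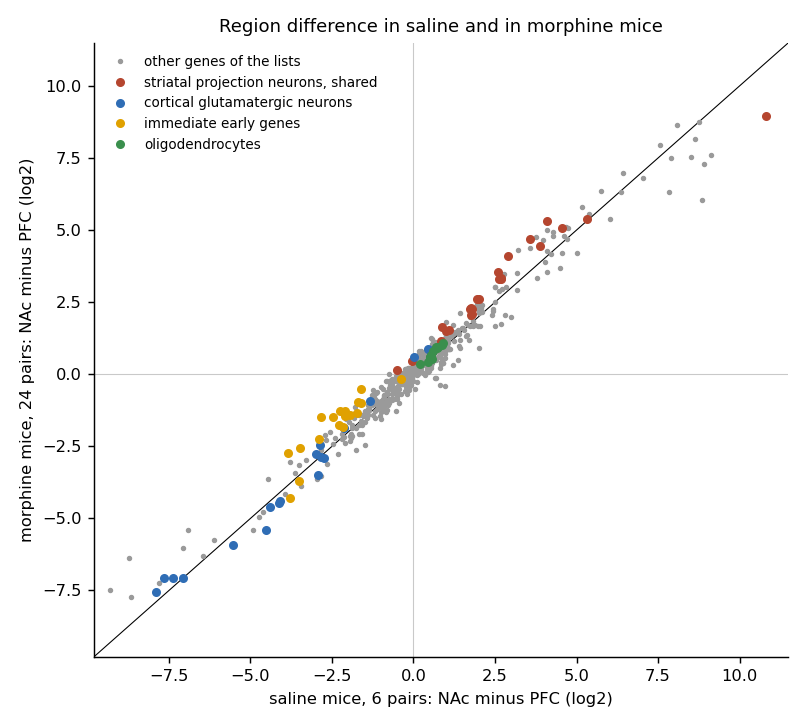
Regional difference (NAc minus PFC, log2) of 539 tested genes in saline mice (x axis, 6 pairs) and in morphine mice (y axis, 24 pairs). The genes drawn are those of the lists, the genes ranked by their saline difference and Six3os1. Grey points include ranked genes that are in no list. The line marks equal values, and 5 genes with no count in PFC are not drawn. Coloured points are 4 of the lists: immediate early genes (yellow, medians -2.20 and -1.47) and projection neuron genes (red, medians 1.94 and 2.62) lie mostly above the line.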

How the data were processed

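Paired-end total RNA of 75 bp reads was sequenced from punched tissue, per the labels' protocols. The deposited values are raw read counts per gene, made by the authors and not normalized. The submitters' processing notes name FastQC, cutadapt, Trimmomatic, STAR, HISAT2, RSEM and the build GRCm38, without their roles. The counting program, the annotation and the strand setting are not given in the sources used here. GENCODE M21 on GRCm38 gave symbols and positions for 45143 of 46078 gene identifiers. Rows that name no gene, and 2 reporter rows, were left out. Their medians over 13 libraries included 5.281% of reads outside genes, 0.841% ambiguous and 15.038% not uniquely aligned.

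The members and gene lists were chosen with earlier results of these data known. Genes were kept by edgeR's filterByExpr with region as the group and scaled by TMM. Differences (NAc minus PFC) were fitted with edgeR 4.0.16 in R 4.3.3, by the quasi-likelihood test with library number as a block, which leaves 5 residual degrees of freedom, and p-values were adjusted by Benjamini and Hochberg over all genes tested. A test against a 2-fold change (glmTreat) was run on the same fit. An adjusted p without another tool named comes from this edgeR test. Genes without counts in a region were set against a floor of 3 counts over the group, and intervals cover counting error only. Values per length are TPM computed from the counts with GENCODE exon lengths. The 12 genes ranked for each direction had the largest fitted difference among protein-coding and lincRNA genes past 2-fold, with at least 3 log2 CPM in the higher region and no overlap between regions. Other named genes are members of the lists, the 5 with the smallest p for sex, and those called in opposite directions in saline and morphine mice. Some genes that this rule names are not reported here. On simulated counts for 16182 genes, 100 genes were changed by 1 on the log2 scale and 100 by 2. Of those changed by 1, 70% were called, of those changed by 2, 91%, and of the 15982 unchanged genes, 0.07%. Far fewer genes were changed there than the 46.3% called in the data, so these shares need not hold for the data.

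Whether equal numbers pair the libraries was checked on 15592 autosomal genes. Deviations from the regional means correlated by 0.06 to 0.14 (median 0.11) between libraries of equal number, over 0.1 for 4 of 6 pairs. Between other numbers the median was 0.06 within a sex and -0.08 between the sexes. The PFC library of equal number correlated best for 5 of 6 NAc libraries. With number as a random block the consensus correlation was 0.04. The block was kept because the comparison is defined by pairs. Alternatives were no block, a random block in limma-voom 3.58.1, RLE scaling, no filter, DESeq2 1.42.0, each sex alone and leaving out each pair. Leaving out pairs 2 and 6 together was chosen after seeing the data.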

Additional observations from a re-analysis of the deposited data

Results flagged for a closer look

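In 23 of 556 groups of libraries (4.1%), a gene named above, a marker list or a library measure had 1 library far from the rest of its region. Chance gives about 1 in 20, so the number by itself is no pattern. Levels are in log2 CPM, with the nearest other library of the region in parentheses.

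Among the NAc libraries, library 6 was the lowest for Slc17a8, at 2.90 (3.94), and for Crym, at 3.55 (6.35), and the highest for Gabra2, at 6.73 (6.15), and for the summed hypothalamus, septum and thalamus list, at 782.2 CPM (301.5). NAc library 5 was the highest for Otof, at 6.03 (5.70), and for the share of reads not uniquely aligned, at 16.28% (15.435%).

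Among the PFC libraries, library 5 was the lowest for Penk, at 4.78 (5.51), and the highest for Agt, at 5.33 (3.60), Pbx3, at 3.73 (3.01), Gabre, at -2.29 (-3.92), and Serpina9, at -0.78 (-3.22). PFC library 6 was the highest for Adora2a, at 1.72 (1.32), Grm2, at 6.74 (6.29), Gabra2, at 6.33 (5.40), and the summed cAMP and cGMP signalling list, at 10200 CPM (9595). PFC library 3 was the highest for Gria1, at 8.92 (8.45), Gal, at -1.67 (-3.23), Six3os1, at -1.67 (-3.92), and the summed ependyma and choroid plexus list, at 159.1 CPM (20.9), and the lowest for Dio3, at -3.37 (-2.07). PFC library 2 was the lowest for Lhx2, at 6.36 (6.64), and the highest for Rgs7, at 6.90 (6.81), and Oxt, at -2.12 (-3.92). Values of -3.92 are libraries with no count.

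The row of the reporter EYFP, which is no mouse gene and entered no comparison, held 15 to 71 counts in every saline library, most in PFC library 3, while the row of tdTomato held 0.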

How the results depend on the processing

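Of the 7500 genes called between the regions, none was called in the opposite direction under any alternative. The count was 8067 without the replicate block (8336 with it as a random effect), 7481 with RLE scaling, 7410 without the filter, 7855 in DESeq2, and 6771 without pairs 2 and 6. It ranged from 5991 to 7180 when single pairs were left out, was 3836 in the 3 female pairs alone and 4468 in the 3 male pairs alone, with fewer libraries in each fit. Genes past 2-fold ranged from 862 to 1089 when single pairs were left out. The numbers of the libraries pair them at most weakly. The test of sex called 0 genes in each fit that left out a single pair (0 to 0), 1 without the filter, and 11 without pairs 2 and 6, where each sex has 2 pairs; the cause was not tested. When pairs 2 and 6 were left out, the differences of Foxp1 (0.64) and Grin2b (0.30) had the opposite sign to those over all pairs, Drd4 (-1.29, adjusted p = 0.167) lost its call, and Cry1 (0.40, adjusted p = 0.0201) and Bhlhe41 (0.34, adjusted p = 0.00876) gained one. Among genes whose call did not change, differences became larger for Six3 (11.78), Dlk1 (9.09), Oxt (10.27), Foxp2 (2.66), Pde1b (2.36), Slc30a3 (-6.27), Tbr1 (-5.03), Otx1 (-4.68), Cplx3 (-4.37), Adcyap1 (-3.31), Adra1d (-5.16), Robo3 (-5.35), Ovol2 (-9.30) and Mybpc1 (-11.03), and smaller for Gabre (7.80), Gal (6.77) and Chrm4 (-0.14). Depth and the number of pairs were not compared as limits on the calls.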

Other observations

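Imprinted genes, of which only the copy from one parent is active, were mostly higher in NAc. The list was put together after the values of some of its members had been seen, so its counts are a description. Of 35 tested genes 25 were higher in NAc and 3 in PFC, beside 23.3% and 23.1% of all genes tested, and 13 passed 2-fold, all higher in NAc. The median difference was 0.97, and 0.90 without pairs 2 and 6. Beside Dlk1 and Calcr, the paternally expressed Peg10 stood at 7.86 to 8.83 log2 CPM in NAc and 3.61 to 4.44 in PFC, a difference of 4.21 ± 0.18. Magel2, a gene of the Prader-Willi region, differed by 4.56 ± 0.30, Dio3, which inactivates thyroid hormone, by 5.03 ± 0.48, Nnat by 2.43 ± 0.14, Zdbf2 by 1.99 ± 0.12, Usp29 by 1.90 ± 0.11, Grb10, a growth factor receptor adaptor, by 1.82 ± 0.13 and Peg3 by 1.65 ± 0.15. Snrpn (-0.54 ± 0.09), Cdkn1c (-0.90 ± 0.14) and Igf2 (-1.48 ± 0.32) were the 3 higher in PFC, and Igf2 is also in the meningeal list, all of whose 9 members were higher in PFC.

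Of 57 axon guidance genes, listed in the same way, 17 were higher in NAc and 15 in PFC, shares near the 23.3% and 23.1% of all genes tested. Robo1, a Slit receptor, was higher in NAc by 1.53 ± 0.18, and Robo3 in PFC, by -4.45 ± 0.45. Dcc, the netrin receptor, was higher in NAc by 1.97 ± 0.22. Sema7a (-2.46 ± 0.14), the ephrin receptors Ephb3 (-1.91 ± 0.13) and Ephb6 (-1.89 ± 0.09), and Ntng2 (-2.20 ± 0.16) were higher in PFC. These 7 were all the guidance genes past 2-fold. Among long non-coding RNAs 76 of 914 (8.32%) passed 2-fold, 36 higher in NAc and 40 in PFC.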
